A study of Mus musculus with 11 samples.

Results

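The genes described here carry the symbols of subunits of the mitochondrial respiratory chain and of the ATP synthase. They were chosen by symbol from a table of read counts, as rows beginning with Ndufa, Ndufb, Ndufc, Ndufs, Ndufv, Uqcr, Cox4i, Cox5, Cox6, Cox7, Cox8 or Atp5, the rows Sdha, Sdhb, Sdhc and Sdhd, and the mitochondrially encoded rows beginning with mt-Nd, mt-Co, mt-Cytb or mt-Atp. Assembly factors with symbols beginning with Ndufaf and 14 rows with -ps in the symbol were left out. The rule gave 100 members among 32469 gene symbols, of which 87 are encoded in the nucleus and 13 in mitochondrial DNA. Complex I holds 48 members, complex II holds 4, complex III holds 9, complex IV holds 20 and the ATP synthase holds 19. The annotation (GENCODE M21) types 4 of the 100, Cox6c2, Ndufb4c, Ndufs6b and Ndufa11b, as processed pseudogenes, and of these Cox6c2 (404 counts over all libraries) and Ndufb4c (327 counts) are among the tested members.

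The libraries came from female C57BL/6 mice of genotype WT, 8 weeks old per the methods, with Lewis lung carcinoma (LLC) tumors, grown from a mouse lung carcinoma cell line injected under the skin of the left and right flanks. In the aLAG3 group, 6 mice received 200 µg of anti-LAG-3 (clone C9B7W) into the peritoneum on days 14 and 16, while the 5 mice of the untreated group received none, and no control antibody is named in the sources used here. The cells are labelled as T cells from tumor, and per the methods they were sorted as CD8+PD-1+Ly108+TIM-3-CD62L- cells, a gate for precursor exhausted cells, which renew themselves and give rise to terminally exhausted cells. The tumors were excised on day 18 per the methods and on day 21 per the series description, so the interval between blockade and excision is uncertain, and an earlier excision of a tumor on day 14 is shared by both groups. LAG-3 is an inhibitory receptor of exhausted T cells, and the comparison asks how its blockade changes the transcripts of these cells.

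The respiratory chain passes electrons from NADH (complex I) and succinate (complex II) through ubiquinol and cytochrome c (complex III) to oxygen (complex IV), and complexes I, III and IV pump protons across the inner mitochondrial membrane. The ATP synthase lets the protons flow back and makes ATP from the energy. Its parts come from both genomes. Mitochondrial DNA encodes the proton-pumping core of complex I, cytochrome b, the catalytic core of complex IV and parts of the proton channel of the ATP synthase, all transcribed as long precursors, while the remaining subunits, including all of complex II, are made from nuclear genes with promoters of their own. In T cells, respiration is a main source of ATP in naive and memory states, and mitochondrial function is known to decline in terminal exhaustion.

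Total counts were between 313524 and 1901374 per library, and 3 counts corresponded to between 1.58 and 9.57 CPM, the unit used for levels here (counts scaled to a common library size). The members held 3.78% to 3.90% of all counts in untreated libraries and 3.71% to 3.99% in aLAG3 libraries. As a check of the cell type, all 6 of 6 CD8 T cell markers (Cd3e, Cd3d, Cd8a, Cd8b1, Trac and Cd2) were found, with a summed level of 4388 to 4493 CPM in untreated and 4255 to 4751 CPM in aLAG3 libraries. All 6 of 6 myeloid markers were also found, at a summed 15.8 to 31.8 CPM in untreated and 20.1 to 79.7 CPM in aLAG3 libraries, with a median of 18.7 CPM against 44.9 CPM, and none of the 6 was at 0 in every library. The summed markers of B cells, natural killer cells, CD4 T cells, erythroid cells, stroma and epithelial or tumor cells reached at most 33.8 CPM in any library, and Alas2 and Krt19 were at 0 throughout. The part of such cells in the values of the respiratory chain genes was not tested. In bulk libraries, fewer cells of a type and less RNA per cell cannot be told apart.

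The handling of multi-mapping reads is not given in the sources used here, and it matters most for the mitochondrially encoded members. The nuclear genome holds copies of mitochondrial DNA, and the table gives some of them rows of their own. The start of mt-Co2, the gene of cytochrome c oxidase subunit II, is shown beside the same stretch of its copies because a read from this stretch of mt-Co2 or Gm28661 cannot be assigned to 1 of both rows (GENCODE M21, build GRCm38). The stretch lies at chrM:7013-7072 on the plus strand for mt-Co2, at chr1:24615506-24615565 on the minus strand for Gm28661 and at chr2:22587903-22587962 on the minus strand for Gm13341, and capitals mark bases that differ from mt-Co2.
mt-Co2: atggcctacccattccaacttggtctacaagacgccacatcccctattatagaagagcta
Gm28661: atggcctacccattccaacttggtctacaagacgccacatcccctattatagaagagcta
Gm13341: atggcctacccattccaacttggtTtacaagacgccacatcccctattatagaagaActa
Gm28661 was identical to mt-Co2 over all 681 bases of the copy. Over all libraries, mt-Co2 held 6057 counts, Gm28661 held 5833 and Gm13341 held 1303.

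Counts were split almost evenly for 3 other mitochondrial rows with a near-identical copy on chromosome 1, mt-Atp6, mt-Co3 and mt-Nd3. Of the 50-base stretches of mt-Atp6, 99.5% also occur in the pseudogene Gm10925, which held 20965 counts beside 21215 for mt-Atp6, and the share of Gm10925 in their sum was between 48.8% and 50.3% in every library. Counts of mt-Co3 and Gm28437 were 5860 and 5708, and those of mt-Nd3 and Gm28438 were 1906 and 1876. The split was less even for mt-Nd4l, which had 4021 counts beside 2779 for Gm10222, although 98.8% of its stretches occur in this copy. Where a copy covers only part of a gene, its share was smaller. Gm29216 holds 28.7% of the stretches of mt-Co1 and had 15.3% of the counts of the pair, and Gm28439 holds 62.2% of the stretches of mt-Nd4 and had 33.4%. By contrast, mt-Nd1, mt-Nd6, mt-Cytb and mt-Atp8 share no 50-base stretch with another annotated transcript. Levels and fold changes of the mitochondrial rows with copies are therefore uncertain, and adding the copies back moved the log2 fold change of mt-Nd3 from -0.14 to -0.09, of mt-Co3 from -0.05 to -0.03 and of mt-Nd4 from -0.02 to 0.05.

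Of the 100 members, 92 passed the filter on low counts (edgeR's filterByExpr, about 17.7 CPM or more in at least 5 libraries) and 8 did not. The 8 were mainly alternative forms of complex IV subunits that other tissues use. Cox4i2, a form of subunit IV known from lung, Cox7b2 and Ndufa4l2 had 0 reads in 8773399 counts, which allows a level of up to 0.342 CPM. Cox6a2 and Cox7a1, the heart and muscle forms of their subunits, had 25 and 8 reads, Cox6b2, a testis form, had 13, and the complex I rows Ndufs6b and Ndufa11b had 7 and 2. The corresponding common forms were high. Per kilobase of the longest annotated coding transcript, Cox4i1 had 1261 CPM, Cox6a1 had 795, Ndufa4 had 688, Cox7a2 had 571, Cox6b1 had 441 and Cox7b had 294. At this depth, reads of these subunits came almost wholly from the common forms.

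Levels per kilobase differed widely within each complex. The length used is that of the longest annotated coding transcript, for example 3171 bases for Sdhc. Which transcripts these cells use was not tested, and the order of genes depends on it. Among the nuclear members of complex I, CPM per kilobase had a median of 131 and ran from 13.6 for Ndufs1, the largest subunit of the NADH-oxidizing arm, to 748 for Ndufa6. Complex II was the lowest complex, with Sdhc at 17.3, Sdha at 51.2, Sdhd at 59.0 and Sdhb at 133. Nuclear members of complex III had a median of 237 and those of the ATP synthase 371, while complex IV was higher with a median of 675. The mitochondrially encoded members reached 10095 for mt-Atp8, 3789 for mt-Atp6, 3418 for mt-Co1, 3166 for mt-Nd1 and 2041 for mt-Cytb, and mt-Nd6 was the lowest at 238. No error is given for these levels, which are means over all 11 libraries, and how evenly the reads cover a transcript is not given in the sources used here. The SD between libraries of a group had a median of 0.162 in log2 CPM over the 92 members, from 0.0576 for mt-Co1 to 0.398 for Atp5c1.

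After LAG-3 blockade, no member passed the test across all genes. In the quasi-likelihood fit of edgeR over 6949 genes, 0 genes (0%) reached an adjusted p (Benjamini-Hochberg) of 0.05, and 0.999 was the lowest value. The likelihood ratio test and DESeq2 also gave 0, with 307 and 163 genes at an unadjusted p under 0.05. In the quasi-likelihood fit 259 genes (3.73%) had p under 0.05, with 121 (1.74%) higher and 138 (1.99%) lower in aLAG3. Of the 92 members, 8 (8.70%) had an unadjusted p under 0.05. The 4 that were higher in aLAG3 were all mitochondrially encoded (mt-Atp6, mt-Co1, mt-Cytb and mt-Nd1), and the 4 that were lower were all nuclear (Cox7a2, Cox8a, Atp5e and Uqcr11). Groups did not overlap in CPM for 33 genes (0.475%) and for 2 of the 92 members, Atp5e and Cox7a2. The number with an unadjusted p under 0.05 was 5 without replicate 11 (5.43%, against 3.79% of the genes tested there), all among the 8, and 12 without replicate 7 (13.0% against 5.31%), among them all 8. It was 4 with no filter on low counts (4.12% against 4.56%), all among the 8. Within primer barcode 9 it was 5 (5.43% against 4.69%), of which 1, mt-Atp6, was among the 8 and 4 were other members. The number whose groups did not overlap was 6 without replicate 2 (6.52%, against 0.882% of the genes tested there), 5 without replicate 7 (5.43% against 1.03%) and 5 without replicate 8 (5.43% against 0.863%). The counts of members were not tested against these backgrounds, and members of a complex are not independent of each other.

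Members of the nuclear and the mitochondrial genome leaned in opposite directions. Of 79 tested nuclear members, 53 were lower and 26 higher in aLAG3, a median log2 fold change of -0.06, whereas 3396 of all 6949 genes (48.9%) were lower and their median was 0.00446. Of 13 mitochondrial members, 10 were higher and 3 lower, with a median of 0.09. Among the 6 libraries made with primer barcode 9, 3 from each group, the nuclear median was -0.06 and the mitochondrial median 0.001255. The lean of the mitochondrial rows was thus not seen in their median there. Their summed CPM in these libraries was 19042, 19110 and 18874 in untreated (replicates 1, 3 and 5). It was 20688, 19134 and 19228 in aLAG3 (replicates 6, 7 and 9). With the barcode as a covariate the medians were -0.07 and 0.05. The nuclear median was -0.04 without replicate 4, and the mitochondrial median was 0.03 without replicate 8. Primer barcode is the number in the library title, and barcode 8 marked 1 untreated and 3 aLAG3 libraries, with 313524 to 451465 counts each. The part of barcode or depth in these values was not tested further.

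**Figure D1:**
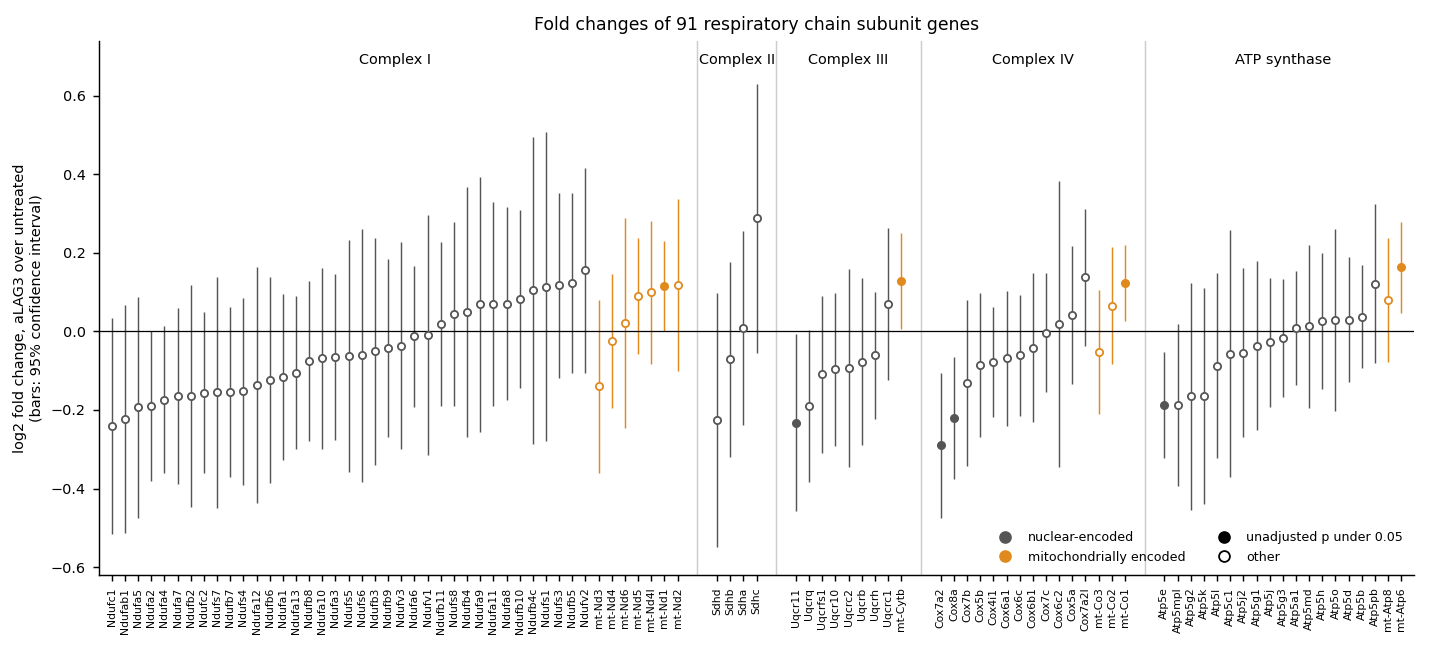
Log2 fold change of aLAG3 over untreated (y axis) for 91 of the 92 tested members (x axis), ordered within each complex, with 95% confidence intervals from edgeR's quasi-likelihood fit. Nuclear members are gray, mitochondrial members orange, and filled points have an unadjusted p under 0.05. Most gray points lie below 0 and most orange points above it, and most intervals include 0.

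The ratio of mitochondrial to nuclear member counts within a library does not depend on the normalization. In untreated libraries the ratio was 0.933, 0.929, 0.879, 0.868 and 0.879 (replicates 1 to 5). In aLAG3 libraries it was 0.996, 0.925, 1.02, 0.972, 1.03 and 1.09 (replicates 6 to 11). All but replicate 7 of the aLAG3 libraries lay above the highest untreated library, and the groups overlapped by this replicate. The mean was 0.897 ± 0.0308 (SD, n = 5) in untreated and 1.01 ± 0.0560 (SD, n = 6) in aLAG3 libraries, a difference of 0.16 in log2. Within barcode 9 the difference was 0.10 in log2, and between the 3 aLAG3 libraries and the 1 untreated library of barcode 8 it was 0.27. With the reads of the nuclear copies added to the mitochondrial rows, the difference was 0.17 and the groups no longer overlapped. The gap was narrow, with untreated replicate 2 at a ratio of 1.213 and aLAG3 replicate 7 at 1.219. The ratio was summarized after the fold changes had been seen and carries no test. The mitochondrial ribosomal RNAs, which are no members, were at 0.149 ± 0.00807 (SD, n = 5) and 0.173 ± 0.0365 (SD, n = 6) of the nuclear member counts, with overlapping groups.

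**Figure D2:**
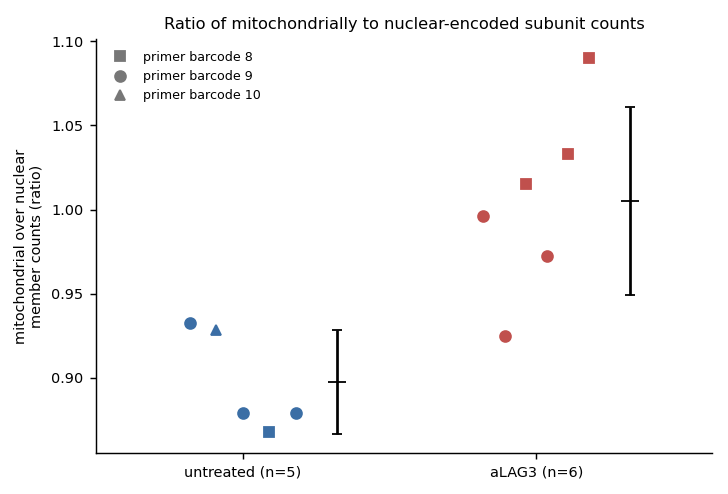
Counts of the 13 mitochondrial members divided by counts of the 87 nuclear members (y axis, which does not start at 0) in each untreated and aLAG3 library. The marker gives the primer barcode and the black bar the mean ± SD. The untreated libraries lie between 0.868 and 0.933 and the aLAG3 libraries between 0.925 and 1.09.

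Summed over a whole complex, both groups were close to each other. The difference of the mean log2 summed CPM between aLAG3 and untreated was 0.02 for complex I, -0.05 for complex II, 0.02 for complex III, 0.02 for complex IV and 0.03 for the ATP synthase. Each was smaller than the SD between libraries of a group, which was 0.0613, 0.100, 0.0588, 0.0291 and 0.0440 in the same order. The ATP synthase was above 0 in all settings run, and the signs of the other complexes differed between settings. Within barcode 9 the differences were -0.04, 0.02, -0.02, -0.0044 and 0.02. Complex I was at -0.0037 without replicate 8, complex III at -0.0014 without replicate 11, and complex II ran from -0.02 without replicate 8 to -0.09 without replicate 7. Complex IV was at 0.0088 without replicate 8 and the ATP synthase at 0.01 without replicate 6 or 11. Split by genome, the nuclear sums differed by -0.05 (complex I), -0.09 (complex III), -0.08 (complex IV) and -0.04 (ATP synthase), and the mitochondrial sums by 0.09, 0.13, 0.10 and 0.12. In every complex and for each genome, the groups overlapped.

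**Figure D3:**
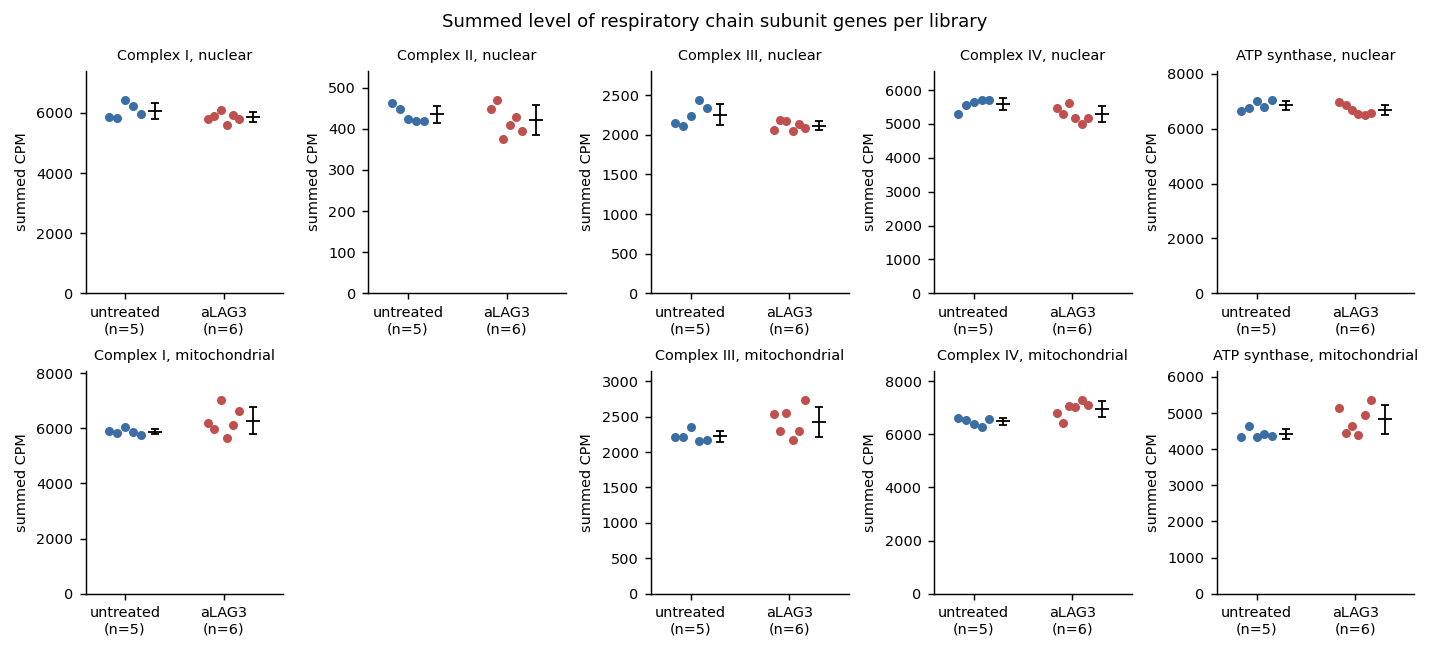
Summed CPM (y axis) of the nuclear members (upper row) and mitochondrial members (lower row) of each complex in each library, with mean ± SD in black. Complex II has no mitochondrial member. Untreated and aLAG3 libraries overlap in every panel.

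In the accounts of each complex, levels of a gene are listed for untreated replicates 1 to 5 and aLAG3 replicates 6 to 11, or given as mean ± SD over the 5 untreated and then the 6 aLAG3 libraries. In complex I, 1 of 45 tested members (2.22%) had an unadjusted p under 0.05, against 3.73% of all genes. This was mt-Nd1, a core subunit near the ubiquinone site. Its level was 2867, 2927, 3048, 2733 and 2908 CPM in untreated libraries and 3324, 2976, 3339, 2803, 3054 and 3346 CPM in aLAG3 libraries. Replicates 6, 8, 10 and 11 lay above all untreated libraries, and replicates 7 and 9 within their range. Its log2 fold change was 0.11 ± 0.06 (SE, adjusted p = 0.999). It was 0.04 within barcode 9, and the p was above the threshold under 14 of 19 alternatives. Another mitochondrial core subunit, mt-Nd5, had 1447 ± 66.2 and 1548 ± 196 CPM, a log2 fold change of 0.09 that was 0.03 without replicate 8 and -0.03 within barcode 9. The other mitochondrial rows of the complex had log2 fold changes between -0.14 (mt-Nd3) and 0.12 (mt-Nd2). That of mt-Nd2 was 0.03 without replicate 8 and -0.03 within barcode 9, and that of mt-Nd3 was -0.06 without replicate 5, -0.08 without replicate 4 and -0.22 without replicate 3. For mt-Nd4, the log2 fold change was -0.02 for its own row and 0.05 with the copy added. The own row was at 0.001255 within barcode 9, and ran from -0.07 without replicate 5 to -0.0002 without replicate 4.

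By role, the nuclear members of complex I comprise core and accessory subunits. The 7 core subunits, which carry the flavin and iron-sulfur clusters of the electron path, had a median log2 fold change of 0.11, with 5 higher and 2 lower. The other 31 tested nuclear rows had a median of -0.07, with 8 higher and 23 lower. They are the accessory subunits, which surround the core, together with Ndufa4 (lower) and the processed pseudogene Ndufb4c (higher), and the difference between both sets was not tested. None of the 38 had an unadjusted p under 0.05, against 3.73% of all genes, but Ndufa2 and Ndufa4 did with the barcode as covariate. Ndufs1 had 34.5 ± 7.59 and 37.6 ± 5.25 CPM. Ndufv1, the NADH-binding subunit, had 64.4 ± 9.45 and 63.4 ± 9.42 CPM.

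Among the accessory subunits, Ndufa2 had the smallest p. Its level was 317, 277, 311, 348 and 317 CPM in untreated and 276, 297, 309, 271, 264 and 227 CPM in aLAG3 libraries. Replicate 11 was the lowest of all and the groups overlapped. The log2 fold change was -0.19 (95% confidence interval -0.38 to 0.0006). With the barcode as covariate it was -0.22, and the unadjusted p was under 0.05 in 8 of 19 alternatives. Ndufc2, a membrane-arm subunit, had 191 ± 16.1 and 169 ± 12.3 CPM. Ndufa4, which is now counted as a subunit of complex IV, had 446 ± 57.9 and 398 ± 33.8 CPM. Its log2 fold change was -0.17, and -0.23 with the barcode as covariate, and the unadjusted p was under 0.05 in 4 of 19 alternatives.

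Complex II is also the succinate dehydrogenase of the tricarboxylic acid cycle. Of its 4 members, 2 were higher and 2 lower, and none had an unadjusted p under 0.05. Sdhc, a membrane anchor, had 59.1, 52.7, 40.9, 35.9 and 48.8 CPM in untreated and 54.1, 52.2, 56.6, 62.1, 67.6 and 73.1 CPM in aLAG3 libraries. Its groups overlapped in part, with a log2 fold change of 0.29 (95% confidence interval -0.06 to 0.63). Without replicate 1 it was 0.43 with an unadjusted p under 0.05, and within barcode 9 it was 0.15. Sdhd, the other membrane anchor, leaned the other way. It had 79.6, 92.3, 77.4, 76.8 and 84.4 CPM in untreated and 77.8, 86.8, 68.4, 57.1, 37.2 and 60.5 CPM in aLAG3 libraries. Its log2 fold change was -0.23 (95% confidence interval -0.55 to 0.10). Without replicate 7 it was -0.36 with an unadjusted p under 0.05, and within barcode 9 it was -0.08. Sdha, the flavoprotein, had 147 ± 15.2 and 149.9 ± 25.1 CPM, and Sdhb, the iron-sulfur protein, had 158 ± 7.32 and 146 ± 28.5 CPM. Over all libraries, Sdhc held 449 counts and Sdhd 637, fewer than all but 3 and 7 of the 92 tested members, while Sdha held 1242 and Sdhb 1338, against a median of 1929 for the tested members.

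In complex III, 7 of 8 nuclear members were lower in aLAG3, at a median of -0.09 in log2 fold change, and mt-Cytb was higher. Uqcr11, a small accessory subunit, lies on chromosome 10 from 80402997 to 80406830. It shares 6.27% of its 50-base stretches with Gm16418. It had 144, 129, 139.7, 143 and 131 CPM in untreated and 116, 129, 127, 113, 105 and 106 CPM in aLAG3 libraries. Replicate 7 was the only aLAG3 library within the untreated range. The log2 fold change was -0.23 ± 0.11 (SE, adjusted p = 0.999), and p was under the threshold in 9 of 19 alternatives. For mt-Cytb, the electron-carrying cytochrome b of the complex (chromosome M, 14145 to 15288), levels were 2218, 2212, 2349, 2157 and 2167 CPM in untreated and 2539, 2297, 2553, 2170.1, 2293 and 2735 CPM in aLAG3 libraries. Replicates 6, 8 and 11 lay above all untreated libraries. Its log2 fold change was 0.13 ± 0.06 (SE, adjusted p = 0.999), and 0.05 within barcode 9. The unadjusted p was above 0.05 in 11 of 19 alternatives, among them the barcode as covariate and barcode 9 alone. Uqcrc1, a core protein, had 240.2 ± 9.00 and 249.9 ± 25.9 CPM. Uqcrfs1, the Rieske iron-sulfur protein, had 216 ± 12.2 and 198 ± 18.8 CPM, and Uqcrh, the hinge protein, had 703 ± 73.6 and 679 ± 58.4 CPM.

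Complex IV held the member with the smallest p. Cox7a2, the common form of subunit VIIa, lies on chromosome 9 from 79755361 to 79759878. Its level was 386, 396, 441, 474 and 411 CPM in untreated and 352, 371, 361, 356, 264 and 330.3 CPM in aLAG3 libraries. Every aLAG3 library was below every untreated library, and replicate 10 stood apart as the lowest. The log2 fold change was -0.29 ± 0.09 (SE, 95% confidence interval -0.48 to -0.11, adjusted p = 0.999). Cox8a, subunit VIII (chromosome 19, 7215153 to 7217616), had 673, 719, 762, 729.9 and 756 CPM in untreated and 666, 665, 682, 612, 534 and 557 CPM in aLAG3 libraries. The groups overlapped by untreated replicate 1 and aLAG3 replicate 8. This gave a log2 fold change of -0.22 ± 0.08 (SE, 95% confidence interval -0.38 to -0.07, adjusted p = 0.999). Neither gene shares a 50-base stretch with another gene, and both kept an unadjusted p under 0.05 in 18 of 19 alternatives, the exception being barcode 9 alone, where the log2 fold changes were -0.20 for Cox7a2 and -0.17 for Cox8a.

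mt-Co1, the catalytic subunit that reduces oxygen (chromosome M, 5328 to 6872), had 5132, 5083, 4983, 4787 and 5177 CPM in untreated and 5444, 5052, 5476, 5636, 5786 and 5524 CPM in aLAG3 libraries. All aLAG3 libraries but replicate 7 were above all untreated libraries. The log2 fold change was 0.12 ± 0.05 (SE, 95% confidence interval 0.03 to 0.22, adjusted p = 0.999), and 0.07 within barcode 9. With the copies added it was 0.13. Cox4i1 had 994 ± 69.2 and 940.1 ± 61.9 CPM, Cox5a had 429 ± 29.3 and 441 ± 48.4 CPM, and Cox5b had 412 ± 49.9 and 386 ± 29.3 CPM. Cox7a2l, which binds complex IV to complex III in supercomplexes, had 431 ± 54.0 and 479 ± 27.5 CPM, a log2 fold change of 0.14 (95% confidence interval -0.04 to 0.31), the highest among the nuclear members of complex IV and opposite in sign to its relative Cox7a2. It was 0.08 without replicate 4 and 0.07 within barcode 9.

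In the ATP synthase, Atp5e, the epsilon subunit of the central stalk (chromosome 2, 174461072 to 174464105), was the other member whose groups did not overlap. It had 741, 837, 756, 827 and 844 CPM in untreated and 699.5, 698, 722, 692, 700 and 693 CPM in aLAG3 libraries. The aLAG3 libraries were close to each other and all below the untreated ones. The log2 fold change was -0.19 ± 0.07 (SE, 95% confidence interval -0.32 to -0.05, adjusted p = 0.999), and -0.16 within barcode 9. The subunits of the catalytic head differed little. Atp5b, the beta subunit, had 916 ± 39.7 and 938 ± 46.4 CPM, with a 95% confidence interval of the log2 fold change from -0.09 to 0.17. Atp5a1, the alpha subunit, had 710.1 ± 38.3 and 713 ± 50.9 CPM, with an interval from -0.14 to 0.15. Both intervals overlap that of Atp5e, and the difference between these genes was not tested.

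mt-Atp6, the proton channel subunit of the ATP synthase (chromosome M, 7927 to 8607), had 2270.4, 2683, 2483, 2346 and 2324 CPM in untreated and 2669.9, 2557, 2673, 2607, 2949 and 2821 CPM in aLAG3 libraries. Apart from untreated replicate 2, the groups did not overlap. Its log2 fold change was 0.16 ± 0.06 (SE, 95% confidence interval 0.05 to 0.28, adjusted p = 0.999), with 0.14 within barcode 9. Among the 8 members, it alone had an unadjusted p under 0.05 in all 19 alternatives. Nearly all of its sequence is shared with Gm10925, however, which had a log2 fold change of 0.15 of its own. mt-Atp8, which overlaps mt-Atp6 on the same strand, had 1997 ± 99.2 and 2111 ± 319 CPM.

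**Figure D4:**
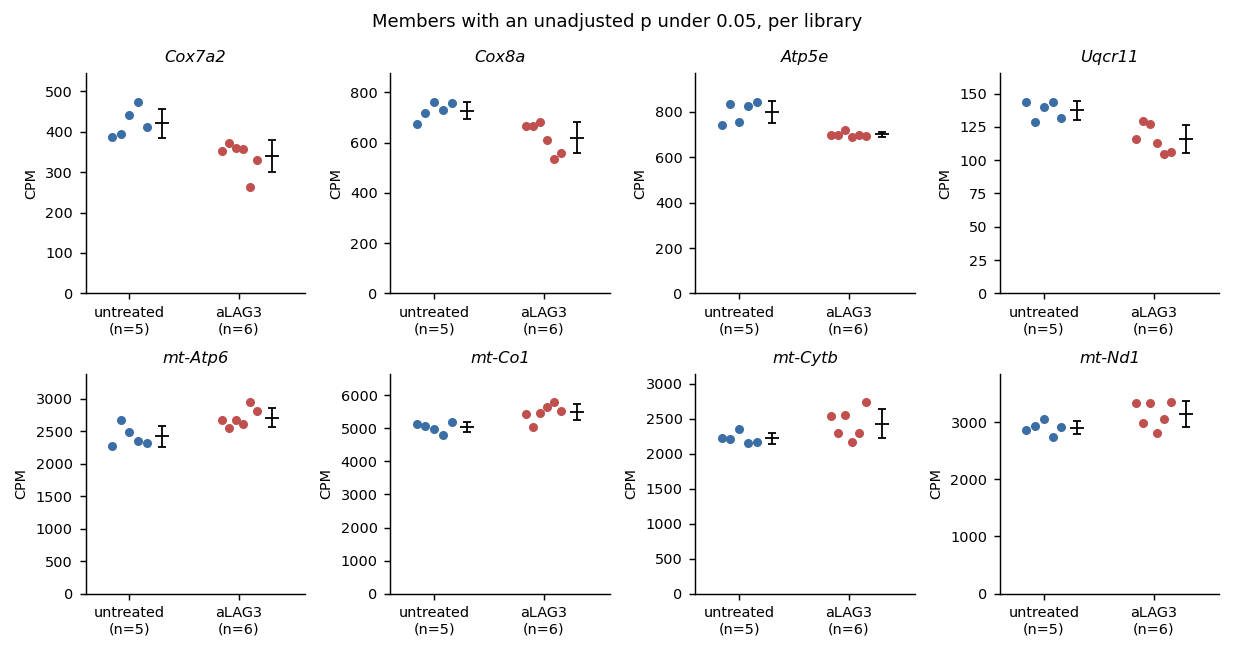
CPM (y axis, from 0) of the 8 members with an unadjusted p under 0.05 in each library, with mean ± SD in black. The upper row holds the nuclear members, which were lower in aLAG3, and the lower row the mitochondrial members, which were higher. Groups are separate for Cox7a2 and Atp5e.

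The nuclear members with an unadjusted p under 0.05 have short transcripts. The longest coding transcript was 421 bases for Atp5e, 445 for Uqcr11, 550 for Cox8a and 659 for Cox7a2. Of 24 tested nuclear members with a transcript of at most 700 bases, 22 were lower and 2 higher in aLAG3, at a median of -0.12 in log2 fold change, and 4 (16.7%) had an unadjusted p under 0.05. The 53 longer ones had a median of -0.04 with 31 lower, and 0 had an unadjusted p under 0.05. A length was found for 77 of the 79 tested nuclear members. Values of genes outside the respiratory chain are given for comparison. The 113 tested genes of at most 700 bases had a median of -0.04 and 66 were lower, and 11 (9.73%) had an unadjusted p under 0.05, all of them lower. The 5834 longer genes had a median of 0.00384, and 207 (3.55%) had an unadjusted p under 0.05, against 3.73% of all genes. The part of transcript length in the values of the nuclear members was not tested. The limit of 700 bases was chosen after the fold changes had been seen.

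**Figure D5:**
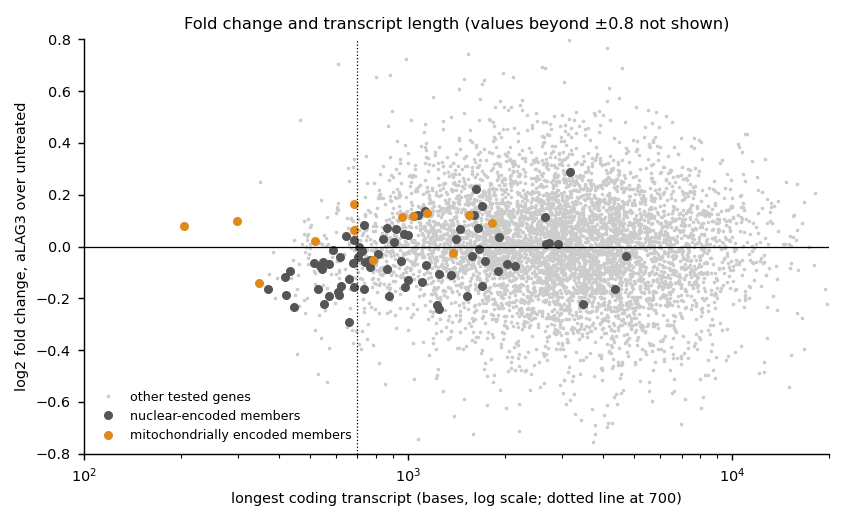
Log2 fold change of aLAG3 over untreated (y axis) against the length of the longest coding transcript (x axis, log scale) for nuclear members (dark gray), mitochondrial members (orange) and other tested genes (light gray). The dotted line marks 700 bases, and 6 other genes beyond ±0.8 are not shown. Left of the line nearly all nuclear members lie below 0, while most mitochondrial members lie above 0 on both sides of the line.

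The promoters of the 4 nuclear members with an unadjusted p under 0.05 are shown because nuclear respiratory genes are known targets of NRF1, of ETS-family factors such as GABP, and of YY1. The sequences are the 250 bases before the start of transcription in RefSeq (build GRCm38.p6), on the gene's strand. Capitals mark matches, on either strand, to the core motifs searched, which were CGCATGCG for NRF1, CCGGAA for ETS factors and AAGATGGC for YY1. The windows are chr9:79759854-79760103, chr19:7217617-7217866, chr2:174464102-174464351 and chr10:80406822-80407071, in the order of the lines and all on the minus strand.
Cox7a2: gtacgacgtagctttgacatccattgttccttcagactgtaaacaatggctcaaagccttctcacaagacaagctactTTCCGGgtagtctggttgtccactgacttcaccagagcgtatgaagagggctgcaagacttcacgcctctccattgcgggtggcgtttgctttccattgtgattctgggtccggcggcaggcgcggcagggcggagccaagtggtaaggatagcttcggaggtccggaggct
Cox8a: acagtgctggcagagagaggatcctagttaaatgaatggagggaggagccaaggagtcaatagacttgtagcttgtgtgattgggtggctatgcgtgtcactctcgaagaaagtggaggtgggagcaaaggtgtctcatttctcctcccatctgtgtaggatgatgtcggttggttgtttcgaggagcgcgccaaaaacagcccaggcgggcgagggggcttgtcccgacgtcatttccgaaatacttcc
Atp5e: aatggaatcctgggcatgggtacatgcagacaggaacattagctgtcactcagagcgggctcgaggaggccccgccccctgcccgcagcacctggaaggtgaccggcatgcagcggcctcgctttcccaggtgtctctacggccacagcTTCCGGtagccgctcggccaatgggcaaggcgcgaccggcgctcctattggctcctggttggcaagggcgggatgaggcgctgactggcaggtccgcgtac
Uqcr11: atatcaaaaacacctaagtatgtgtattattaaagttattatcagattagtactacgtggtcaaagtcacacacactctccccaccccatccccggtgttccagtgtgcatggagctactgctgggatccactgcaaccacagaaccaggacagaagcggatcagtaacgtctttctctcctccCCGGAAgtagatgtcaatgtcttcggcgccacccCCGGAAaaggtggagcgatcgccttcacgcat
The ETS motif occurred 1 time in Cox7a2 and in Atp5e and 2 times in Uqcr11, and no motif was matched in Cox8a. A promoter was found for 68 of the 87 nuclear members. The NRF1 motif was in 7 of them (10.3%), in 4.39% of 4990 tested genes with a promoter and in 1.75% of all 27025 genes in the table of promoters. The ETS motif was in 20 members (29.4%), 30.0% of the tested genes and 13.6% of all, and the YY1 motif in 1 member (1.47%), 2.73% and 1.83%. These are matches of letters in this window and no evidence of binding.

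Genes that build and serve the chain were looked at as lists. Among 98 genes in all, 62 were tested, of which 36 were higher and 26 lower in aLAG3. Their median was 0.03 in log2 fold change, and 3 (4.84%, against 3.73% of all genes) had an unadjusted p under 0.05. Of 12 tested assembly factors of complex IV, 7 were higher and 5 lower, and both that passed an unadjusted p under 0.05 were lower. Cox17, which carries copper to complex IV, had 617 ± 75.0 and 493 ± 45.0 CPM, with a log2 fold change of -0.33 ± 0.09 (SE, adjusted p = 0.999). Cox14, a factor for the synthesis of mt-Co1, had 117 ± 8.34 and 96.4 ± 32.4 CPM, with a log2 fold change of -0.33. Coq9, of ubiquinone synthesis, had 30.1 ± 5.78 and 39.3 ± 11.1 CPM, with a log2 fold change of 0.49.

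The other lists had no gene with an unadjusted p under 0.05. Of 9 tested complex I assembly factors, 3 were higher and 6 lower. The tested factors of complex II (1 higher, 2 lower), complex III (2 higher) and the ATP synthase (1 higher, 1 lower) were few. Of 9 tested regulators of respiratory chain genes, such as transcription factors and their coactivators, 5 were higher and 4 lower, with a median log2 fold change of 0.04. Of 13 tested enzymes of the tricarboxylic acid cycle, 9 were higher and 4 lower, with a median of 0.07, and of 7 membrane carriers, 5 were higher and 2 lower, with a median of 0.06. The difference between the lists and the nuclear subunits was not tested.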

How the data were processed

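The deposited values are raw counts per gene symbol, made by the authors after trimming with Cutadapt and alignment by Bowtie2 to GRCm38 transcripts (the submitters' processing notes name cutadapt 4.1 and Bowtie2 2.4.5). RNA was captured on oligo-dT beads, reverse transcribed with template switching and amplified by PCR, with no molecular identifiers stated. The floors cover counting error only, whereas the intervals of the fold changes also include the spread between libraries. Handling of multi-mapping reads and of strand is not given in the sources used here. Labels gave the groups (5 untreated and 6 aLAG3 libraries, a mouse each per the series text). Primer barcodes came from the titles.

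Counts were filtered with filterByExpr (minimum count 10, minimum total 15), scaled by TMM and tested with glmQLFTest in edgeR 4.0.16 (R 4.3.3) over 6949 genes, with Benjamini-Hochberg adjustment. CPM used TMM library sizes. The SE is the log2 fold change over the square root of F. Chi-square per degree of freedom between libraries was 1.41 to 2.66 over 55 pairs, and 0 pairs were identical. The floor is 3 counts. Marker levels used total counts. Lengths, positions and shared 50-base stretches came from GENCODE M21 (GRCm38) and promoters from RefSeq (GRCm38.p6).

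Named members were those with an unadjusted p under 0.05 or with groups that did not overlap, the 2 most abundant and the leading higher and lower member of each complex, and fixed catalytic subunits, isoforms and mitochondrial rows. Of the other lists, genes with an unadjusted p under 0.05 were named. The members and lists were chosen with earlier results of these data known. Alternatives were the likelihood ratio test of the study's methods, DESeq2 1.42.0, RLE or total-count scaling, no filter, the barcode as covariate or barcode 9 alone, leaving out each library, and other membership rules. Adding nuclear copies to mitochondrial rows, the split by genome and their ratio, the core subunits of complex I and the length limit were chosen after seeing the data. The values of 1 tested member and of 1 marker gene are not reported here.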

Additional observations from a re-analysis of the deposited data

Results flagged for a closer look

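In the aLAG3 group, Cox7a2 was lowest in replicate 10, at 8.043 in log2 CPM (263.8 CPM), while the other 5 libraries lay between 330.3 and 371.4 CPM. The gap to the nearest library was 0.657 of the range of the group. Without this library Cox7a2 was still lower in aLAG3, and all 5 others lay below the untreated libraries. Atp5e was highest in aLAG3 replicate 8, at 9.496 in log2 CPM (722 CPM), with the other 5 libraries between 691.5 and 700 CPM and a gap of 0.717 of the range. In all, 90 sets of values were examined with Dixon's criterion, chance alone gives about 1 in 20 (here 4.5), and 2 were found.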

How the results depend on the processing

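No paired analysis was made. The replicate numbers run on over both groups and carry no information on pairing. A further code in the titles, whose meaning the labels do not give, was shared by untreated replicates 2 and 3 and aLAG3 replicate 10 and another by untreated replicates 4 and 5, so only 1 code held both groups and no fit was blocked on it. Of the counts, medians and ratios under all alternatives, 328 stayed close to the reported value or on its side and 13 moved. For the named genes, 695 values kept their direction and their side of an adjusted p of 0.05, which no member passed, and 27 reversed. The unadjusted p was above 0.05 in 14 of 19 alternatives for mt-Nd1, 11 for mt-Cytb, 10 for Uqcr11, 2 for mt-Co1, 1 each for Cox7a2, Cox8a and Atp5e (barcode 9 alone) and 0 for mt-Atp6. DESeq2 gave 163 genes with an unadjusted p under 0.05. Without a filter on low counts, 3 genes passed the adjusted test, none of them a member, 1095 genes and 4 members had an unadjusted p under 0.05, and the log2 fold change of Ndufv1 was 0.0022. With the barcode as covariate, Sdha was at -0.001973. With the nuclear copies added, mt-Nd4 was at 0.047. Barcode 9 alone, which leaves 3 libraries a group, gave 425 genes and 5 members (1 of the 8 reported and 4 others) with an unadjusted p under 0.05, 15 members whose groups do not overlap (16.3%, against 10.0% of all genes tested there) and a median of the mitochondrial members of 0.001255. There Ndufv1 (0.081), Sdhb (0.070), Sdha (-0.017), mt-Co2 (-0.049), mt-Nd2 (-0.034), mt-Nd4 (0.001255), mt-Nd4l (-0.048) and mt-Nd5 (-0.027) reversed. The cause was not tested. Leaving out each library gave 0 to 2 genes passing the adjusted test (2 without replicate 7, none a member), 5 (without replicate 11) to 12 (without replicate 7) members with an unadjusted p under 0.05 and 2 to 6 (without replicate 2) members whose groups do not overlap. The log2 fold changes then ran from -0.016 to 0.036 for Atp5a1, -0.013 to 0.072 for Cox5a, -0.072 to 0.054 for Ndufv1, -0.051 to 0.082 for Sdha and -0.089 to 0.095 for mt-Nd6. Leaving out members that share over 20% of their sequence gave medians of -0.06 (nuclear) and 0.10 (mitochondrial, 6 of 13 left). Counting Ndufa4 in complex IV moved no median or sum beyond the spread between libraries. Libraries of 313524 counts put the floor of 3 counts at 9.57 CPM, so low isoforms cannot be compared between groups.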
